A study of Homo sapiens with 34 samples.

Results

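Metallothioneins and zinc transporters set how much free zinc a cell holds, and 10 of their genes were followed here in 4 human prostate cell lines. The genes were the metallothioneins MT1E, MT1F, MT1G, MT1X and MT2A, the zinc exporters SLC30A1 and SLC30A4, and the zinc importers SLC39A1, SLC39A6 and SLC39A10. They were taken by symbol from a table of read counts for 26336 genes in 34 RNA-seq libraries, and all 10 passed the filter on low counts in every fit. RWPE cells derive from prostate epithelium and do not form tumors. LNCaP was started from a metastasis in a lymph node, VCaP and MDAPCa2a from metastases in bone. Cells grew on tissue culture plastic or on a layer of amorphous calcium phosphate (ACP), the mineral used here in the place of bone. Media were the control medium of each line, the same with serum stripped of steroids by charcoal-dextran, or stripped medium with an androgen labelled 100 mM, which the sample titles call DHT and the treatment labels testosterone.

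LNCaP and VCaP had plastic control, plastic stripped, ACP control, ACP stripped and ACP androgen groups. MDAPCa2a lacked the ACP control group, and RWPE had plastic control, ACP control and ACP androgen groups only, so its androgen medium was set against control medium. In that RWPE comparison the androgen and any change of base medium cannot be told apart. A group held 2 libraries, except that RWPE on ACP with androgen held 3 and VCaP on plastic in stripped medium held 1. RWPE grew in serum-free keratinocyte medium and the other lines in 3 different media with serum, so line and medium cannot be told apart. MDAPCa2a grew on protein-coated plastic, and that coating was not used on ACP. The labels do not say that replicates were separate cultures, so p-values measure the spread between these libraries, which may be technical.

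Zinc enters the cytosol through the importers of the SLC39 (ZIP) family and leaves it, outward or into vesicles, through the exporters of the SLC30 (ZnT) family. Metallothioneins are small proteins that bind zinc and copper through many cysteines. When free zinc rises, the sensor MTF1 binds metal response elements in the promoters of metallothionein genes and of SLC30A1 and raises their transcription. Normal prostate epithelium is known for storing a great deal of zinc, and prostate carcinoma for holding less.

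Depth was 15.4 M to 44.8 M counted reads in a library, and levels are given as CPM, the count relative to the TMM-scaled library size. Summed levels of the basal markers KRT5, KRT14 and TP63 were 3349 to 15699 CPM in RWPE libraries and at most 37.2 CPM in the other lines. The plastic control libraries, which the labels call continuous culture where the others are day 4, stood apart. The summed level of 8 liver genes was 10.7 to 23.7 CPM in the plastic control libraries of RWPE, LNCaP and MDAPCa2a and 0.445 to 3.17 CPM in their other libraries. All 8 liver genes were above 0 in each plastic control group, and at least 2 were at 0 in every other group. The 5 lymphoid and myeloid genes summed to 5.02 to 17.3 CPM in the same plastic control libraries and to at most 1.81 CPM in the other libraries of those lines. In VCaP the liver genes summed to 77.4 to 161 CPM in plastic control and 137 to 248 CPM in ACP control libraries, and the lymphoid and myeloid genes to 6.39 to 11.7 CPM and 3.41 to 7.05 CPM, so both sums overlapped there. The liver genes read still differed in VCaP, with 0 of the 8 at 0 in plastic control and 3 or 4 at 0 in its other groups. Comparisons with the plastic control groups of RWPE, LNCaP and MDAPCa2a therefore also compare libraries that differ in these sums. Those in VCaP compare libraries that differ in the liver genes read, and the part of either in the results was not tested.

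The 5 metallothionein genes lie in 1 cluster on chromosome 16, with MT2A at chr16:56608199-56609497 and MT1X at chr16:56682424-56684196 on the forward strand of GRCh38 (GENCODE v29). Their coding sequences, read from the principal GENCODE transcript of each gene, are shown because their likeness bears on the counts. Each is 186 bases long with its stop codon, each holds 20 cysteine codons among 61, and these are set in capitals.
MT1E: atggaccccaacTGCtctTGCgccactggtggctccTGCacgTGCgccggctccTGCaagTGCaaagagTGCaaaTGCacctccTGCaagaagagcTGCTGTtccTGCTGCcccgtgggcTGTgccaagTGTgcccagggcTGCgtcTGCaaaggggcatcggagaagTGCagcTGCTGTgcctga
MT1F: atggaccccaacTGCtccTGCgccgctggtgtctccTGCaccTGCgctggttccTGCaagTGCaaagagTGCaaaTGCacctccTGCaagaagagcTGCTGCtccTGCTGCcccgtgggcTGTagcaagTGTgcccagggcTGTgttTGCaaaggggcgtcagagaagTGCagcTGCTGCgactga
MT1G: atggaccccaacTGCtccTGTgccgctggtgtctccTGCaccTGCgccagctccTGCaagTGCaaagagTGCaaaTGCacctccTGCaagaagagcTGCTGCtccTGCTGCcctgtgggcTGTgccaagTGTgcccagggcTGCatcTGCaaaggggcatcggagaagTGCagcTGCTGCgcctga
MT1X: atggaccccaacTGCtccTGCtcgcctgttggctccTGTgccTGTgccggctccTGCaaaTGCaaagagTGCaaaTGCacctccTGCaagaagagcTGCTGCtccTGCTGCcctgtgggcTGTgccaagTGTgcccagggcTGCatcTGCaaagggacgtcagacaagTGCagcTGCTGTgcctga
MT2A: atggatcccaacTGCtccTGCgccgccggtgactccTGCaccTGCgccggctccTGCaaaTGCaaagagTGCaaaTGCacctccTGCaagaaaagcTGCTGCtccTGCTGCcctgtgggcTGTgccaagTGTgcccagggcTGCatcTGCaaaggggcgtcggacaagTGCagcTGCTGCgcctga
Coding identity between pairs ran from 88.71% for MT1F with MT1X to 95.16% for MT1G with MT2A. Reads within the coding part can therefore match several genes, and how the authors counted such reads is not given in the sources used here. Of all 50-base windows of the principal transcript, UTRs included, 16% of those of MT1X and 20.2% of those of MT1G also occurred in the transcripts of other metallothionein genes or pseudogenes. For MT1X the share was 45.1% when the overlapping locus AC026461.1 was counted. The shares were 5.34% for MT1E, 4.88% for MT2A and 3.59% for MT1F. Values of MT1X and MT1G are the most exposed to reads split or dropped between paralogs. Among the transporters, 84.7% of the windows of SLC39A1 also lay in the transcripts of AL358472.7, a GENCODE locus with the same sequence, and at most 0.0141% of those of the other transporters were shared.

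RefSeq promoters (GRCh38.p14) were at hand for 7 of the 10 genes, and the 250 bases before the start were searched on both strands for TGCACNC and TGCGCNC, the forms of the metal response element core. No match overlapped another. The promoters of MT1X (chr16:56682220-56682469, forward strand), MT2A (chr16:56608334-56608583, forward strand) and SLC30A1 (chr1:211579162-211579411, reverse strand) are shown because MTF1 is known to act on them, with matches in capitals.
MT1X: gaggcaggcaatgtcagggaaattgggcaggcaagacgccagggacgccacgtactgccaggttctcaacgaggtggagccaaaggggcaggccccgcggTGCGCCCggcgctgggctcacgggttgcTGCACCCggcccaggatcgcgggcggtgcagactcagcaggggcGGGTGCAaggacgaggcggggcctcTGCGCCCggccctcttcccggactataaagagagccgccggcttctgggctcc
MT2A: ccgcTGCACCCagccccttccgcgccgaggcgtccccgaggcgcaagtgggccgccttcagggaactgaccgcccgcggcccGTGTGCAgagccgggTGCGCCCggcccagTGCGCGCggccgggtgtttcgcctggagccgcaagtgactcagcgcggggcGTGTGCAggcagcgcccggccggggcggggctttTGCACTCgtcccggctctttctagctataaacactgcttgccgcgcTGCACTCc
SLC30A1: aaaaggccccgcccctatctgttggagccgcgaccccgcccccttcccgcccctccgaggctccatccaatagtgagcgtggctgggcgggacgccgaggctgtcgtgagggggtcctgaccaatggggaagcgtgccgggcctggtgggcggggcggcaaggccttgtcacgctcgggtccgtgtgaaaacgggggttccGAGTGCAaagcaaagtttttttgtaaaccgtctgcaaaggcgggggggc
MT2A held 7 matches, MT1X 4 and SLC30A1 1. Of 35116 RefSeq promoters of that length, 24.8% held at least 1 match, 0.37% at least 4 and 0.0313% at least 7. SLC30A4, SLC39A6 and 1 of the 2 SLC39A1 promoters held 1 match each, and neither SLC39A10 promoter held any. A match describes letters and is not a measured binding site. The GENCODE model of SLC30A1 starts at chr1:211578742, downstream of the RefSeq start used. Those of MT2A (chr16:56608199) and SLC39A10 (chr2:195575977) start upstream, so the bases searched for these genes lie inside the GENCODE genes. The bases just before these GENCODE starts were not searched.

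**Figure D1:**
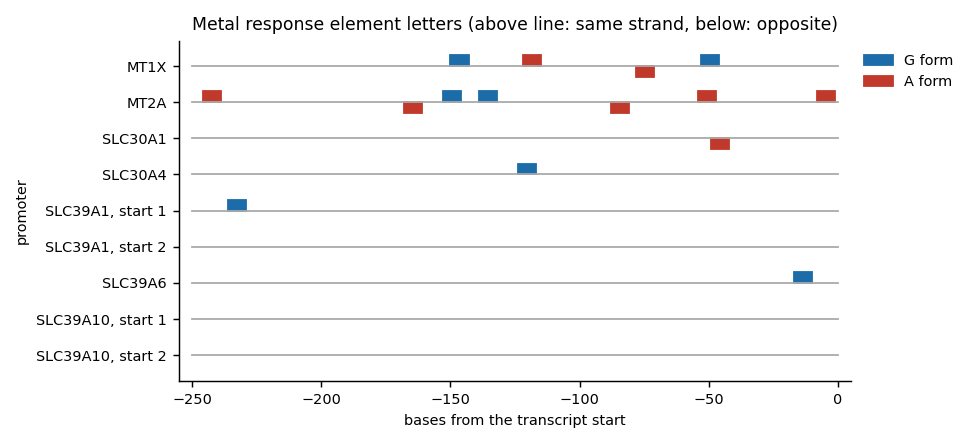
Positions of metal response element letters in the 250 bases before the transcript start of 9 RefSeq promoters of 7 genes (x axis, bases from the start). Boxes above a line lie on the gene's strand and boxes below on the opposite strand, with TGCACNC as the A form and TGCGCNC as the G form. MT2A held 7 matches, MT1X 4, and the others at most 1.

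The summed metallothionein level separated RWPE from the 3 carcinoma lines, and the single genes differed between lines. RWPE held the most in all, LNCaP had nearly no MT1E but the most MT1G, and MT1G was low in RWPE and VCaP alike. Summed over the 5 genes, RWPE libraries held 1156 to 1939 CPM, VCaP 112 to 372 CPM, LNCaP 49.6 to 153 CPM and MDAPCa2a 18.4 to 84.3 CPM. The RWPE range overlapped no other line, while those of VCaP and LNCaP overlapped, as did those of LNCaP and MDAPCa2a.

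MT2A, the most widely expressed human metallothionein, read 786 and 861 CPM in RWPE on plastic in control medium. It read 32 and 29.3 CPM in LNCaP, 53.9 and 106 CPM in VCaP and 36.3 and 45.8 CPM in MDAPCa2a under the same label. Every RWPE library lay above every library of the other lines. Against RWPE, the log2 change was -4.75 ± 0.52 (SE) in LNCaP (adjusted p = 3.07e-08), -3.37 ± 0.49 in VCaP (adjusted p = 1.93e-06) and -4.33 ± 0.51 in MDAPCa2a (adjusted p = 9.53e-08; edgeR's quasi-likelihood test, used for all such values). MT1X, another broadly expressed member, was 84.6 and 117 CPM in RWPE plastic control libraries. It was 18.9 and 10.9 CPM in LNCaP, 15.7 and 24.6 CPM in VCaP and 14.1 and 16.7 CPM in MDAPCa2a. The 3 carcinoma lines thus lay close together and below RWPE, with log2 changes of -2.75 ± 0.46, -2.32 ± 0.46 and -2.71 ± 0.46 and adjusted p between 1.77e-05 and 0.000102.

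MT1E told LNCaP from all other lines. RWPE libraries of all groups read 283, 396 and 483 CPM (lowest, median and highest), VCaP 37.5, 58.7 and 106 CPM, MDAPCa2a 3.35, 8.41 and 15.5 CPM, and LNCaP 0.0346, 0.344 and 1.02 CPM. No 2 lines overlapped. The highest LNCaP library reached 0.21% of the highest RWPE library and held 46 reads. In plastic control medium the log2 change from RWPE was -8.83 ± 0.60 in LNCaP (adjusted p = 7.87e-12), -2.47 ± 0.43 in VCaP (adjusted p = 2.44e-05) and -4.31 ± 0.47 in MDAPCa2a (adjusted p = 2.49e-08). The fitted -12.52 ± 0.77 on ACP with androgen rests on 1 and 3 reads in LNCaP.

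MT1G ran the other way, with its highest levels in LNCaP. Its LNCaP libraries read 5.92, 10.3 and 17.1 CPM (lowest, median and highest) against 0.101, 0.406 and 0.545 CPM in RWPE, 0.0975, 0.313 and 1.56 CPM in VCaP and 0.202, 2.81 and 4.55 CPM in MDAPCa2a. LNCaP overlapped no other line, and the 3 others overlapped each other. RWPE libraries held 4 to 16 MT1G reads and VCaP libraries 2 to 36. On plastic in control medium MT1G was higher than in RWPE by 6.18 ± 0.70 in LNCaP (adjusted p = 4.97e-08) and by 5.17 ± 0.70 in MDAPCa2a (adjusted p = 7.37e-07) on the log2 scale, and the 0.98 ± 0.85 of VCaP did not pass (adjusted p = 0.324). MT1F was low in all lines, between 0.254 and 13.1 CPM, and in plastic control medium none of the 3 lines differed from RWPE past the threshold.

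**Figure D2:**
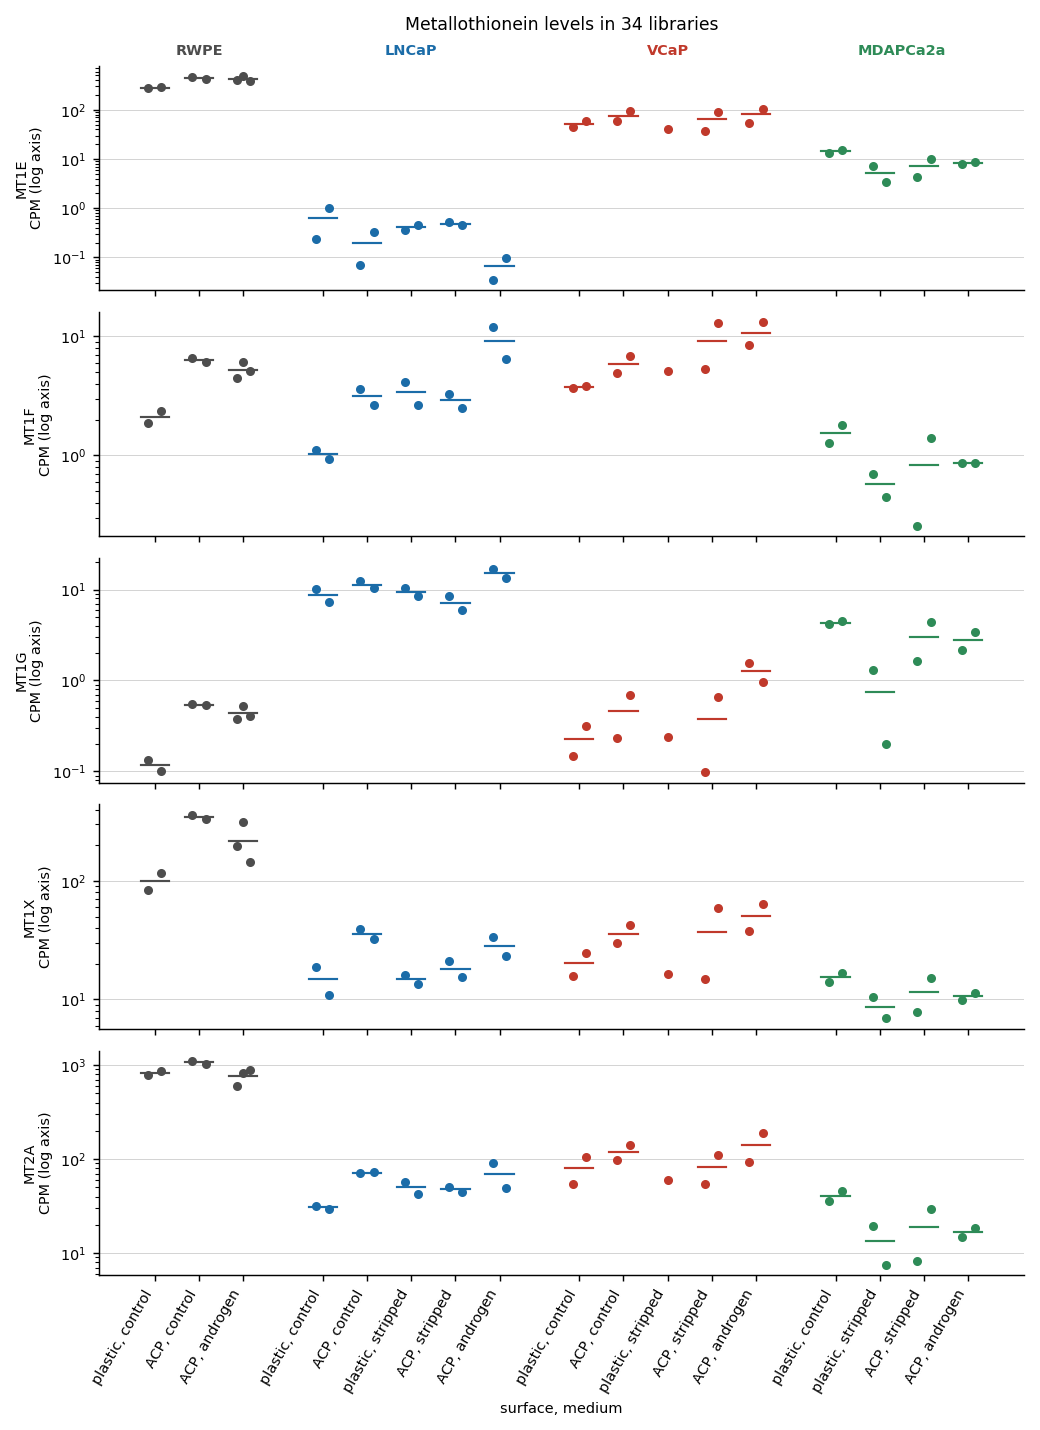
Level of each metallothionein gene in every library (y axis, TMM-scaled CPM on a log axis), by line, surface and medium (x axis). Points are libraries and bars are group means. MT1E falls to at most 1.02 CPM in LNCaP, where MT1G is highest at 5.92 to 17.1 CPM.

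The makeup of the family also differed between lines. To compare genes, CPM was divided by the length in kilobases of the principal transcript, which runs from 406 bases for MT1G to 786 for MT2A, and each gene was given as a share of the 5. MT2A took 43.0% to 62.8% of this summed level in RWPE, 37.1% to 51.9% in LNCaP, 33.1% to 48.2% in VCaP and 27.5% to 44.4% in MDAPCa2a. MT1X took 11.8% to 28.6% in RWPE, 25.4% to 40.9% in LNCaP, 19.6% to 31.0% in VCaP and 28.3% to 49.7% in MDAPCa2a. The MT1E share was 22.6% to 31.8% in RWPE and 26.2% to 36.4% in VCaP, 14.5% to 19.3% in MDAPCa2a and at most 1.75% in LNCaP. The MT1G share was 13.1% to 22.8% in LNCaP, 1.61% to 11.9% in MDAPCa2a, at most 1.29% in VCaP and at most 0.053% in RWPE. The shares depend on these lengths, and other lengths were not tried. GENCODE starts the MT2A gene at chr16:56608199, upstream of the RefSeq start used for its promoter. A shorter MT2A length would give MT2A a larger share.

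**Figure D3:**
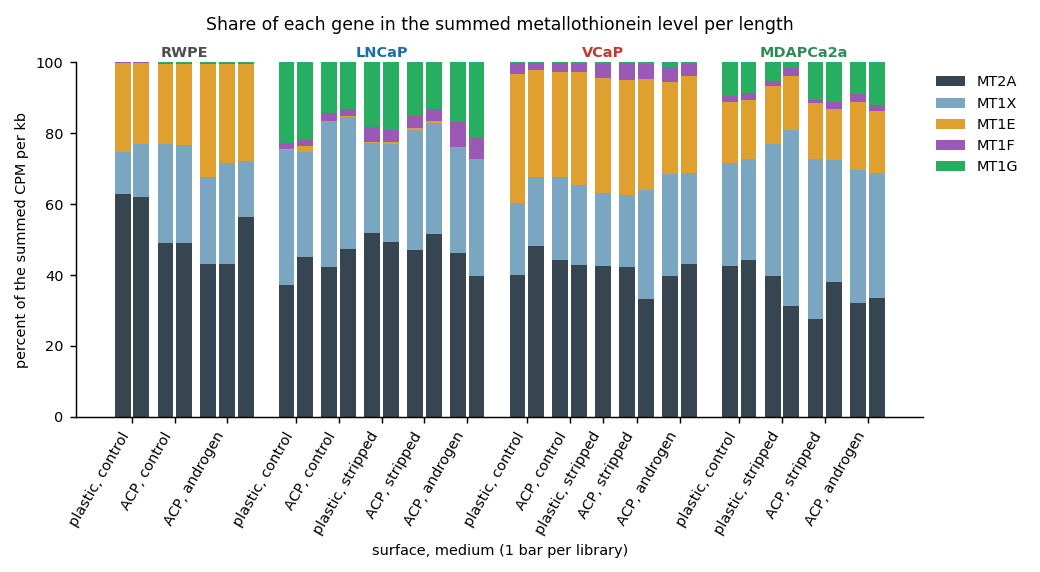
Share of each metallothionein gene in the summed level of the 5 genes (y axis, percent of CPM per kilobase of principal transcript), with 1 bar per library grouped by line, surface and medium. MT1E (orange) is at most 1.75% in LNCaP, where MT1G (green) takes 13.1% to 22.8%.

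Of 8 other metallothionein genes, MT1A and MT1H had 0 reads in all 34 libraries. MT1B, MT1HL1, MT1M and MT4 had at most 5 reads in any group. MT1L, an annotated pseudogene, was read at 0.767 to 2.00 CPM in RWPE, at 0.488 to 2.29 CPM in VCaP and at no more than 0.0505 CPM in the other 2 lines, so it was read in the lines with the most MT1E. MT3, known from brain, read 1.13 to 4.28 CPM in VCaP, with 64 to 165 reads per group, and at most 0.561 CPM, with at most 20 reads per group, in the other lines.

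Of the transporters, SLC30A4 and SLC39A6 separated RWPE from the 3 carcinoma lines in every library. SLC30A4, which moves zinc into vesicles, read 4.19 to 5.59 CPM in RWPE, 146 to 457 CPM in LNCaP, 32.7 to 294 CPM in VCaP and 55.9 to 192 CPM in MDAPCa2a. The highest RWPE library stood below the lowest of any other line, and the ranges of the 3 other lines overlapped. On plastic in control medium the log2 change from RWPE was 5.97 ± 0.43 in LNCaP (adjusted p = 2.04e-11), 4.78 ± 0.41 in VCaP (adjusted p = 3.56e-10) and 3.98 ± 0.40 in MDAPCa2a (adjusted p = 5.04e-09). SLC39A6, an importer of the cell surface first known as estrogen-regulated, climbed in steps. It read 33.0 to 47.2 CPM in RWPE, 136 to 300 CPM in LNCaP, 570 to 783 CPM in VCaP and 782 to 1043 CPM in MDAPCa2a. RWPE and LNCaP overlapped no other line, while the highest VCaP and the lowest MDAPCa2a library met. The changes from RWPE were 2.49 ± 0.19, 3.73 ± 0.20 and 4.32 ± 0.21 on the log2 scale, with adjusted p between 1.48e-14 and 5.21e-11.

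SLC39A10, a close relative of SLC39A6, read 7.91 to 16.5 CPM in RWPE and lay above that in every other library, at 29.7 to 115 CPM in LNCaP, 27.1 to 85.6 CPM in VCaP and 18.3 to 44.3 CPM in MDAPCa2a. The 3 carcinoma lines overlapped each other. In plastic control medium it was higher than in RWPE by 2.96 ± 0.24 in LNCaP, 1.71 ± 0.23 in VCaP and 1.34 ± 0.23 in MDAPCa2a on the log2 scale, with adjusted p between 1.64e-10 and 2.26e-05. SLC30A1, the exporter of the plasma membrane, went the other way to a small extent in the same groups, at 36.5 and 34.3 CPM in RWPE, 21.1 and 17.4 CPM in LNCaP and 10.0 and 20.5 CPM in VCaP. Its log2 change was -0.88 ± 0.30 in LNCaP (adjusted p = 0.0155; range -1.03 to -0.75 with a library left out, and not called without LNCaP plastic control replicate 2) and -1.21 ± 0.31 in VCaP (adjusted p = 0.00138; range -1.82 to -0.79, and not called without VCaP plastic control replicate 1). In MDAPCa2a, at 24.3 and 19.5 CPM, it did not pass (-0.69 ± 0.30, adjusted p = 0.0544). SLC39A1, the importer studied most in prostate, stayed between 113 and 255 CPM in all 34 libraries. No line's SLC39A1 range stood clear of the others, and in plastic control medium only VCaP passed (0.41 ± 0.17, adjusted p = 0.0330), a call lost without either RWPE library or VCaP replicate 2.

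**Figure D4:**
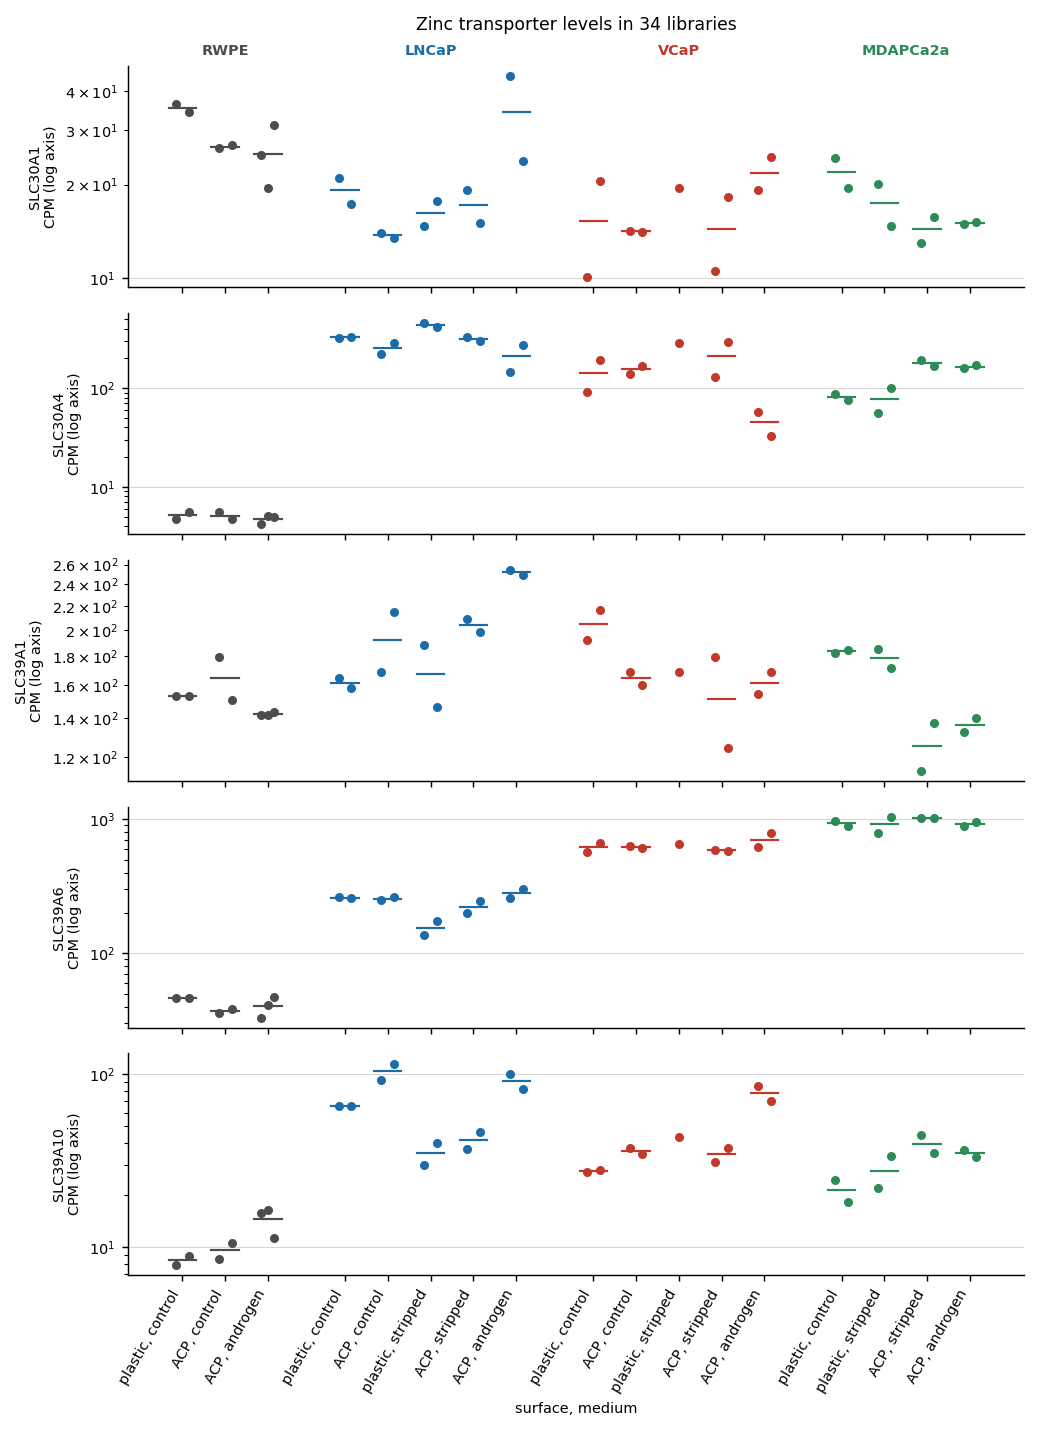
Level of each zinc transporter gene in every library (y axis, TMM-scaled CPM on a log axis), by line, surface and medium (x axis). Points are libraries and bars are group means. RWPE lies below the other lines for SLC30A4 (4.19 to 5.59 CPM), SLC39A6 and SLC39A10, and SLC39A1 stays between 113 and 255 CPM.

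By counts, 8 of the 10 genes differed from RWPE in plastic control medium in LNCaP and in VCaP, with 4 up and 4 down in each, and 7 in MDAPCa2a, with 4 up and 3 down. Of all genes tested, 57.4%, 62.4% and 56.7% were called in these comparisons, so most genes differ between the lines. On ACP with androgen 8 genes differed in LNCaP and in VCaP, with 5 up and 3 down in each, and 9 in MDAPCa2a, with 4 up and 5 down, where 66.9%, 67.4% and 64% of all genes were called. The directions of MT1E, MT1X, MT2A, SLC30A4, SLC39A6 and SLC39A10 were the same in all 6 comparisons with RWPE, and all of these calls held when any 1 library was left out. Of the other zinc transporters, 7 of 8 SLC30 exporters and 9 of 11 SLC39 importers were tested. On ACP with androgen all 9 importers were higher in LNCaP than in RWPE, 5 were higher and 3 lower in VCaP, and 6 were higher and 1 lower in MDAPCa2a.

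Per length, the dominant transcripts of the set also changed with the line. In RWPE, MT2A led with a median of 1096 CPM per kilobase, ahead of MT1E at 562 and MT1X at 436, and SLC30A4 was last at 0.693. In VCaP and MDAPCa2a the importer SLC39A6 led at 176 and 271 CPM per kilobase. In LNCaP the importers SLC39A1 at 79.6 and SLC39A6 at 71.6 led, followed by MT2A at 63.4, and their ranges over libraries overlapped. The order depends on the principal transcript lengths used, and a shorter MT2A length would raise MT2A in it.

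On ACP in control medium, 2 of the 5 metallothioneins were called higher than on plastic in RWPE and 3 of the 5 in LNCaP. The plastic control libraries are labelled continuous culture and the ACP ones day 4. Surface and culture history therefore cannot be told apart in this comparison in RWPE, LNCaP or VCaP. In RWPE, MT1X was 84.6 and 117 CPM on plastic and 363 and 331 CPM on ACP. MT1F was 1.86 and 2.35 CPM on plastic and 6.54 and 6.04 CPM on ACP. Neither gene's groups overlapped, and the log2 changes were 1.81 ± 0.33 for MT1X (adjusted p = 0.0188) and 1.60 ± 0.27 for MT1F (adjusted p = 0.0150). These were the 2 genes of 10 called in RWPE, against 4.16% of all genes. Each call was lost when any 1 of the 4 libraries was left out, where far fewer of all genes were called as well. The changes stayed at 1.59 to 2.06 for MT1X and 1.44 to 1.78 for MT1F. MT1E (0.68 ± 0.19, adjusted p = 0.0737) and MT1G (2.19 ± 0.61, adjusted p = 0.0696, on 9 reads over both plastic libraries) missed the threshold.

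In LNCaP on ACP, 4 of the 10 genes were called higher and none lower, where 12.6% of all genes were called. MT1F read 1.12 and 0.927 CPM on plastic and 3.61 and 2.66 CPM on ACP, a log2 change of 1.72 ± 0.37 (adjusted p = 0.0177). MT1X read 18.9 and 10.9 CPM on plastic and 39.4 and 32.6 CPM on ACP, a change of 1.38 ± 0.27 (adjusted p = 0.0142). MT2A read 32 and 29.3 CPM on plastic and 71.3 and 72.2 CPM on ACP, a change of 1.33 ± 0.25 (adjusted p = 0.0121). The ACP libraries of all 3 metallothioneins lay above the plastic libraries. The importer SLC39A10 read 65.6 and 65.7 CPM on plastic and 92.5 and 115 CPM on ACP, a change of 0.76 ± 0.20 (adjusted p = 0.0346). None of the 4 was called without either plastic control library or without ACP control replicate 1, while 3 were called without ACP control replicate 2. In the fits that called none of the 4, far fewer of all genes were called as well. A fit of all lines called only 1 of the 4, and 647 of 17323 genes in all. MT1G (0.47 ± 0.24, adjusted p = 0.203) did not pass, and MT1E, on 57 reads on plastic and 11 on ACP, had the opposite sign (-1.53 ± 0.81, adjusted p = 0.221). The exporters SLC30A1 (-0.38 ± 0.28) and SLC30A4 (-0.26 ± 0.23) did not pass. Of 9 other importers tested, SLC39A8 was called higher (0.89 ± 0.19, adjusted p = 0.0183). Of the copper and metal-sensor genes, the copper chaperones ATOX1 (1.00 ± 0.16, adjusted p = 0.00837) and COX17 (0.88 ± 0.15, adjusted p = 0.0104) rose and the other 6 of 8 were not called.

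VCaP on ACP in control medium had 0 of the 10 genes called by edgeR, 0 at an unadjusted p below 0.05 and 0 by DESeq2, where 0.0448% of all genes were called. The differences had the same sign as in LNCaP for MT1F (0.69 ± 0.43), MT1X (0.89 ± 0.53) and MT2A (0.63 ± 0.43), with adjusted p of at least 0.704. Whether the surface acted differently in VCaP and LNCaP was not tested.

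Between ACP and plastic in stripped medium, where no plastic control library enters, no member was called in any line by edgeR. LNCaP had 0 of 10 called (2 at an unadjusted p below 0.05, 1 by DESeq2) with 6.12% of all genes called, VCaP 0 of 10 (0 unadjusted, 0 by DESeq2) with 0% called, and MDAPCa2a 0 of 10 (4 unadjusted, 1 by DESeq2) with 0.00734% called. The plastic side of VCaP is 1 library. LNCaP metallothioneins were close on both surfaces, with MT2A at 57.6 and 42.3 CPM on plastic and 51.0 and 44.8 CPM on ACP and MT1X at 16.1 and 13.6 CPM on plastic and 21.0 and 15.5 CPM on ACP. Their log2 differences were -0.02 ± 0.24 and 0.33 ± 0.27. Of the 8 copper and metal-sensor genes, the copper importer SLC31A1 (0.59 ± 0.14, adjusted p = 0.0326) and ATOX1 (0.76 ± 0.16, adjusted p = 0.0213) were higher on ACP in LNCaP. In MDAPCa2a, SLC30A4 was 55.9 and 99.4 CPM on plastic and 192 and 167 CPM on ACP without overlap (1.29 ± 0.26, adjusted p = 0.161), and its plastic carried the protein coating.

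SLC39A10 was lower in stripped than in control medium in LNCaP on both surfaces. On plastic it went from 65.6 and 65.7 CPM in control medium to 29.7 and 40.1 CPM, a log2 change of -0.86 ± 0.21 (adjusted p = 0.0257). On ACP it went from 92.5 and 115 CPM to 36.9 and 46.5 CPM, a change of -1.33 ± 0.21 (adjusted p = 0.00441). The groups did not overlap on either surface. On plastic the control libraries are labelled continuous culture and the stripped ones day 4, so medium and culture history cannot be told apart there. The call on ACP held without either control library and without stripped replicate 2 and was lost without stripped replicate 1 (range of the change -1.53 to -1.17).

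On plastic, SLC39A6 also fell in LNCaP, from 263 and 258 CPM to 136 and 173 CPM (-0.70 ± 0.17, adjusted p = 0.0282), and MT1F rose from 1.12 and 0.927 CPM to 4.13 and 2.65 CPM (1.78 ± 0.37, adjusted p = 0.0128). With SLC39A10 these were 3 called genes of 10, against 9.45% of all genes, and all 3 calls were lost without either plastic control library or without stripped replicate 1. Far fewer of all genes were called in those fits as well. The stripping comparison on plastic and the LNCaP comparison of surfaces in control medium share the 2 plastic control libraries, in which MT1F is at its lowest. On ACP, SLC39A10 was the only member called, against 5.37% of all genes. There MT1F was flat (-0.13 ± 0.35), SLC39A6 was -0.21 ± 0.17, and MT1X, at 39.4 and 32.6 CPM in control and 21.0 and 15.5 CPM in stripped medium, missed the threshold (-1.0 ± 0.27, adjusted p = 0.0582). Of the other SLC30 and SLC39 genes in LNCaP on plastic, 1 of 6 exporters tested was higher, and 1 of 9 importers was higher and 1 lower. The exporter SLC30A10 rose by 1.99 ± 0.36 (adjusted p = 0.00665) and the importer SLC39A8 by 0.82 ± 0.19 (adjusted p = 0.0232) on the log2 scale. Of 8 copper and metal-sensor genes there, ATOX1 (0.65 ± 0.16) and COX17 (0.72 ± 0.15) rose and SLC31A1 fell (-1.20 ± 0.14, adjusted p = 0.000583). These calls use the same plastic control libraries as the comparison of surfaces. On ACP 1 of 9 importers was called. The importer SLC39A14, which also carries iron and manganese, was lower in stripped medium on both surfaces. It was lower by 0.60 on plastic and 0.72 on ACP (log2, SE 0.13 each, adjusted p = 0.0179 and 0.0109).

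In VCaP, stripping called 0 of 10 genes by edgeR on plastic (1 at an unadjusted p below 0.05) and 0 on ACP (0 unadjusted), with 0 by DESeq2 on both, where 0.89% and 0.82% of all genes were called. SLC39A10 was 27.1 and 28.0 CPM in plastic control medium and 43.6 CPM in the 1 stripped library. On ACP it was 37.5 and 34.6 CPM in control and 31.2 and 37.6 CPM in stripped medium, which overlapped. In MDAPCa2a on plastic 0 of 10 were called by edgeR (5 at an unadjusted p below 0.05, 2 by DESeq2), against 1.58% of all genes. The 5 metallothioneins were the genes with an unadjusted p below 0.05, with MT2A at 36.3 and 45.8 CPM in control and 19.4 and 7.55 CPM in stripped medium (-1.57 ± 0.53, adjusted p = 0.193) and MT1G at 4.14 and 4.55 CPM against 1.29 and 0.202 CPM (-2.46 ± 0.65, adjusted p = 0.104). On plastic, medium and culture history cannot be told apart in VCaP or MDAPCa2a either.

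Androgen raised the importer SLC39A10 on ACP in LNCaP and VCaP, and its change in MDAPCa2a was not called. In LNCaP it read 36.9 and 46.5 CPM in stripped medium and 100.2 and 81.8 CPM with androgen, a log2 change of 1.11 ± 0.21 (adjusted p = 0.00982). In VCaP it read 31.2 and 37.6 CPM and 85.6 and 69.8 CPM, a change of 1.18 ± 0.20 (adjusted p = 0.00543). The groups did not overlap in either line. In MDAPCa2a it read 44.3 and 35.0 CPM and 36.3 and 33.4 CPM, which overlapped (-0.23 ± 0.26, adjusted p = 0.968). The VCaP call held when any 1 of the 4 libraries was left out (1.04 to 1.32), and the LNCaP call was lost without stripped replicate 1 or androgen replicate 1 (0.94 to 1.30). With androgen, LNCaP stood near its ACP control level of 92.5 and 115 CPM, while VCaP stood above its ACP control level of 37.5 and 34.6 CPM.

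SLC30A4, the vesicle exporter, fell with androgen in VCaP from 129 and 294 CPM to 57.8 and 32.7 CPM, without overlap. The log2 change was -2.22 ± 0.45 (adjusted p = 0.0108). It ranged from -2.67 to -1.51 with a library left out, and the call was lost without androgen replicate 2. In LNCaP it read 330 and 300 CPM and 146 and 276 CPM, lower without overlap but not called (-0.60 ± 0.23, adjusted p = 0.145). In MDAPCa2a it read 192 and 167 CPM and 159 and 169 CPM (-0.17 ± 0.26, adjusted p = 0.968).

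Of the metallothioneins, MT1F and MT1G rose with androgen in LNCaP. MT1F went from 3.30 and 2.52 CPM to 12.0 and 6.40 CPM (1.65 ± 0.35, adjusted p = 0.0178) and MT1G from 8.47 and 5.92 CPM to 17.1 and 13.4 CPM (1.07 ± 0.25, adjusted p = 0.0249), both without overlap. Both calls were lost without either stripped library or without androgen replicate 1, where far fewer of all genes were called as well. MT1X (0.63 ± 0.27) and MT2A (0.53 ± 0.24) did not pass, nor did the exporter SLC30A1, at 19.2 and 15 CPM against 44.9 and 23.9 CPM (1.00 ± 0.28, adjusted p = 0.0508). Androgen replicate 1 was the higher of its pair for MT1F, MT1G, MT1X, MT2A and SLC30A1. In every other LNCaP group too, replicate 1 was the higher for MT1F, MT1G and MT1X, and the main tests did not use the replicate number. MT1E, on 29 and 4 reads per group, was -2.81 ± 1.00 (adjusted p = 0.114).

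In all, androgen called 3 of 10 genes in LNCaP (7.73% of all genes), 2 in VCaP (17.5% of all genes) and 0 in MDAPCa2a by edgeR (0 at an unadjusted p below 0.05, 0 by DESeq2), where 0% of all genes were called. The androgen-induced genes KLK3, KLK2, TMPRSS2 and FKBP5 all rose in LNCaP and VCaP, and in MDAPCa2a their changes lay between -0.46 and -0.14 (log2, adjusted p = 0.968 for each). In VCaP the lymphoid and myeloid genes summed to 7.17 to 13.6 CPM in stripped medium and 82.8 to 158 CPM with androgen, mostly LYZ at 118 CPM with androgen, with 2 of 5 genes at 0. The liver genes went from 272 to 328 CPM down to 29.9 to 76.5 CPM there. The part of these lists in the VCaP result was not tested. The LNCaP comparison shares its ACP stripped libraries with the stripping comparison on ACP. In RWPE, androgen medium against control medium called 0 of 10 by edgeR (3 at an unadjusted p below 0.05, 0 by DESeq2), while 19.1% of all genes were called. That is 2730 of 14293 genes, and without androgen replicate 3 it was 6102 of 14409, so these counts depend on that library. SLC39A10 was 8.51 and 10.6 CPM in control medium and 15.8, 16.5 and 11.3 CPM with androgen there (0.62 ± 0.23, adjusted p = 0.0764). Of 5 other exporters tested, SLC30A6 rose (0.73 ± 0.16, adjusted p = 0.0203), and of 8 other importers SLC39A13 fell (-0.68 ± 0.16, adjusted p = 0.0209). Of 8 copper and metal-sensor genes, SLC31A1 rose (0.61 ± 0.18, adjusted p = 0.0419) and SLC31A2 fell (-0.53 ± 0.16, adjusted p = 0.0437). The basal markers KRT5 (-1.16 ± 0.36) and TP63 (-0.82 ± 0.22) fell in the same RWPE comparison. The sum of the basal markers spread widely over the androgen libraries, from 3349 to 10954.5 CPM.

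**Figure D5:**
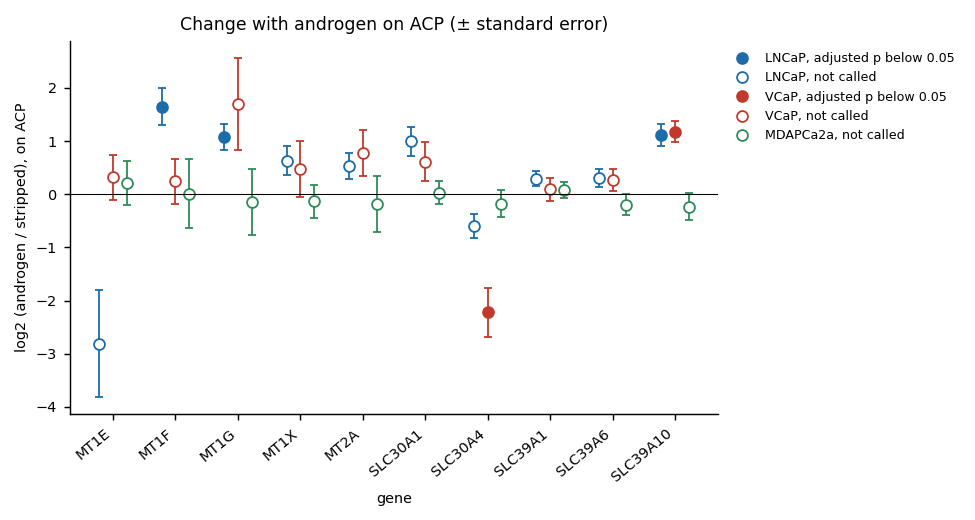
Log2 change of each gene between androgen and stripped medium on ACP (y axis) in LNCaP, VCaP and MDAPCa2a. Bars are 1 standard error, derived from the edgeR change and its F statistic. Filled points passed an adjusted p of 0.05. SLC39A10 rose by 1.11 in LNCaP and 1.18 in VCaP, SLC30A4 fell by 2.22 in VCaP, and no point is filled for MDAPCa2a.

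The androgen effects themselves were compared between lines. For SLC39A10 the effect of MDAPCa2a was smaller than that of LNCaP (difference -1.31 ± 0.32, adjusted p = 0.0376) and of VCaP (-1.36 ± 0.32, adjusted p = 0.00912), while VCaP and LNCaP differed by 0.05 ± 0.31 (adjusted p = 0.983). For SLC30A4 the effect in VCaP was below that in LNCaP (-1.65 ± 0.49, adjusted p = 0.0314) and in MDAPCa2a (MDAPCa2a minus VCaP 2.09 ± 0.49, adjusted p = 0.00962). Those were the only members called, 1 of 10 between VCaP and LNCaP (10.9% of all genes), 1 between MDAPCa2a and LNCaP (1.12%) and 2 between MDAPCa2a and VCaP (7.86%). Left-out libraries kept the directions of these 4 differences. For SLC39A10 the range was -1.49 to -1.13 against LNCaP and -1.52 to -1.19 against VCaP, and for SLC30A4 it was -2.13 to -0.93 against LNCaP and 1.38 to 2.56 for MDAPCa2a minus VCaP. The calls were less steady. SLC30A4 between VCaP and LNCaP lost its call without 5 of the 8 libraries (LNCaP stripped replicate 1 or 2, LNCaP androgen replicate 2, VCaP stripped replicate 2 or VCaP androgen replicate 2). SLC39A10 between MDAPCa2a and LNCaP lost it without 6 of the 8 and kept it without LNCaP androgen replicate 2 or MDAPCa2a stripped replicate 2. Between MDAPCa2a and VCaP, SLC30A4 lost it without VCaP stripped or androgen replicate 2, and SLC39A10 without VCaP or MDAPCa2a stripped replicate 1. None of the metallothionein effects differed between lines past the threshold, and the MT1F difference between VCaP and LNCaP was -1.42 ± 0.61 (adjusted p = 0.141).

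Other SLC30 and SLC39 genes moved with androgen in VCaP. The vesicle exporter SLC30A2 went from 2.17 ± 0.455 to 54.3 ± 42.5 CPM (mean ± SD, n = 2), a log2 change of 4.66 ± 0.67 (adjusted p = 0.00292), with 24.3 and 84.4 CPM in the androgen libraries. The importers SLC39A7 (1.06 ± 0.21, adjusted p = 0.0103), which releases zinc from the endoplasmic reticulum, and SLC39A9 (0.75 ± 0.21, adjusted p = 0.0361) rose, and the exporters SLC30A3, SLC30A9 and SLC30A10 fell, SLC30A10 by 3.07 on the log2 scale (adjusted p = 0.0416). The copper chaperone COX17 rose as well (1.17 ± 0.26, adjusted p = 0.0143), 1 of 8 copper and metal-sensor genes. For the SLC30 and SLC39 genes that is 1 higher and 3 lower of 7 other exporters tested and 2 higher and 0 lower of 9 other importers, against 17.5% of all genes. In LNCaP the metal sensor MTF1 rose with androgen from 34.5 and 36.2 CPM to 49.2 and 69.4 CPM (0.73 ± 0.18, adjusted p = 0.0325). There 1 of 6 other exporters fell (SLC30A3, -2.43 ± 0.60, adjusted p = 0.0323).

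Replicates of the metallothioneins spread widely in some groups. In VCaP on ACP in stripped medium, replicate 2 was above replicate 1 for all 5, at 58.7 against 14.9 CPM for MT1X (3.95 times), 110 against 54.0 CPM for MT2A and 92.1 against 37.5 CPM for MT1E. MDAPCa2a in stripped medium showed the same kind of gap, with MT2A 3.53 times higher in replicate 2 on ACP and 2.57 times higher in replicate 1 on plastic. Every comparison with these groups carries that spread. In every VCaP group of 2 libraries, replicate 2 was the higher for MT1E, MT1F, MT1X and MT2A.

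Across the 26 libraries outside plastic control, with each line's mean taken off, MT1X and MT2A varied together (Pearson r of log2 CPM 0.80), as did SLC39A6 and SLC39A10 (r = 0.68). SLC30A1 followed MT2A weakly (r = 0.38) and MT1X less (r = 0.28). Its r was 0.39 with SLC39A1 and -0.44 with SLC30A4. MT1E had an r of 0.07 with MT1X and 0.24 with MT2A. These points share lines, groups and depth and are given as a description. Among 11387 genes, those most like MT2A were WARS (r = 0.83), SLC1A4 (0.77) and ESRP1 (0.76). Those most like MT1X were MGAT2 (r = 0.72), CDC42EP3 (0.70) and RECQL (0.69), and those most like SLC30A1 were CSGALNACT1 (r = 0.81), NSF (0.81) and TMEM2 (0.78). In bulk libraries, fewer cells with a transcript and less transcript per cell cannot be told apart, and that holds for every level given here.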

How the data were processed

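The 34 RNA-seq libraries of 4 prostate cell lines were analysed from the table of raw read counts per gene that the authors deposited. STAR, HTSeq and hg19 are named in the submitters' processing notes, without roles or versions. On the annotation, the use of strand and reads that match several genes, nothing is given in the sources used here. The samples were grouped by line, surface and medium from their labels.

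Counts were scaled by TMM and tested with edgeR 4.0.16 (R 4.3.3), using the quasi-likelihood F test after filterByExpr with a minimum count of 10. Contrasts within a line were fitted on that line's libraries, and contrasts between lines, including differences of androgen effects, on all 34. P-values were adjusted by Benjamini-Hochberg over all genes tested, and a gene was called at an adjusted p below 0.05. A level is a TMM-scaled CPM, and a standard error comes from the fit. Alternatives were DESeq2 1.42.0 as another test, DESeq2-type size factors, no filter, the replicate number as a block, 1 fit of all lines and leaving out each library. A fit without the plastic control libraries was added after seeing the data. The tests were run on simulated data first.

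The members and gene lists were chosen with earlier results of these data known. The rule for named genes took every member, the largest rise and fall of each other list, and for MT1X, MT2A and SLC30A1 the 3 most alike genes. Within a line, the other called genes of the zinc and copper lists were named after their values were seen. Transcripts and gene positions came from GENCODE v29 (GRCh38), and promoters from RefSeq (GRCh38.p14). No coordinate was taken from hg19.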

Additional observations from a re-analysis of the deposited data

Results flagged for a closer look

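The log2 change with androgen of SLC30A4 and of SLC39A10 differed between some lines, by the test of the difference of the log2 effects in 1 edgeR fit of all libraries. For SLC30A4 the VCaP effect minus the LNCaP effect was -1.645, and the MDAPCa2a effect minus the VCaP effect was 2.0934. For SLC39A10 the MDAPCa2a effect minus the LNCaP effect was -1.313, and the MDAPCa2a effect minus the VCaP effect was -1.3643. In MDAPCa2a itself, 0 of 13626 genes were called with androgen, KLK3, KLK2, TMPRSS2 and FKBP5 among those not called. Each of these differences lost its call without some single libraries. For SLC39A10 the VCaP and LNCaP effects differed by 0.05 ± 0.31 (adjusted p = 0.983 by edgeR), a difference that was not called. The 2 differences of each gene share a line, so they are not independent.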

How the results depend on the processing

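The number of the 10 genes called was within 1.5 times its first value for 179 of the alternative counts and moved for 49. With the replicate number as a block it went from 0 to 2 in RWPE with androgen medium and from 1 to 2 for stripping in LNCaP on ACP. The deviations of same-numbered libraries correlated with r from -0.2336 to 0.2071 over 50 pairs, in which both replicates of 2-library groups give the same r, and 12 were above 0.1. Not every r passed 0.1, so the numbers were not taken to pair samples. Those r cover all genes past the filter. Some metallothioneins were higher at the same replicate number in every 2-library group of LNCaP or VCaP. In a fit of all lines the count of the 10 was 1 for LNCaP on ACP against plastic in control medium. It was 1 for stripping in MDAPCa2a on plastic. Without a filter on low counts it was 3 for stripping in LNCaP on ACP, 1 for the surface in stripped LNCaP, 6 for androgen in LNCaP, 3 for stripping in MDAPCa2a, 2 for the surface in stripped MDAPCa2a and 2 for the androgen difference of VCaP and LNCaP. By DESeq2 these were 2, 1, 4, 2, 1 and 2. Without the plastic control libraries, a fit chosen after seeing the data, stripping in LNCaP on ACP gave 2. Leaving out 1 library gave 0 to 0 for RWPE on ACP, 0 to 2 for RWPE with androgen medium, 0 to 3 for the LNCaP surface in control medium, 0 to 3 and 0 to 1 for stripping in LNCaP on plastic and on ACP, 0 to 1 for the surface in stripped LNCaP and 0 to 6 for androgen in LNCaP. It gave 1 to 3 for androgen in VCaP, 0 to 1 for the surface in stripped MDAPCa2a, and 0 to 1, 0 to 1 and 1 to 3 for the androgen differences of VCaP and LNCaP, MDAPCa2a and LNCaP, and MDAPCa2a and VCaP. The number of all genes called changed as well. For androgen medium in RWPE it went from 2730 to 5741 of 14293 with the block. Replicate number 3 occurs in RWPE only in the androgen group, so the block also fits that 1 library apart. Leaving that library out gave 6102 of 14409. For androgen in LNCaP it went from 1133 of 14656 to 2028 of 20397 without a filter and 1759 of 14656 by DESeq2. With 1 library left out, the number of all genes called fell in most fits of RWPE and LNCaP and rose in some. The cause of these moves was not tested. Counts of genes differing from RWPE stayed between 7 and 10. For single genes, 78 alternative values lost a call, 57 gained one, 127 uncalled values changed sign, 2014 kept their sign and their side of the threshold, and 0 called values changed sign. Where leaving out a library left 1 in a group, that library was assumed to vary like the other groups. VCaP on plastic in stripped medium, 1 library, could not be left out. With 2 libraries a group and from 1 to 46 reads for MT1E in LNCaP, depth and spread limit the low genes most.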
